A study of Mus musculus with 12 samples.

Results

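Interferon-stimulated genes were described in cells sorted from mouse midbrain. The 9 genes were Ifit1, Ifit3, Isg15, Irf7, Irf9, Oasl2, Bst2, Ifitm3 and Usp18, taken by symbol from the deposited tables of 24346 genes. All 9 were found, each on 1 row, and all 9 passed the filter on low counts, which kept 17380 genes. The study measured RNA in 12 libraries, 3 in each of 4 groups. The animals were C57BL/6 mice given an injection into the substantia nigra on both sides, of saline or of preformed fibrils of α-synuclein with the G51D substitution (20 µg at 5 µg/µL). Midbrain was taken 7 or 12 weeks later, so the groups are saline at 7 weeks, synuclein at 7 weeks, saline at 12 weeks and synuclein at 12 weeks. The saline groups had the same injection, and no uninjected group was analysed here. The sort kept cells that carried hKO1, an orange fluorescent protein, which the labels call neural cells without naming what drives the protein, and the labels used here give no age or sex. The labels do not say whether the 3 replicates came from separate mice, so each p-value reflects only the spread between these samples, which may be technical.

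Type I interferons are cytokines that infected or stressed cells release, and they act through a receptor of 2 chains, Ifnar1 and Ifnar2. The receptor's kinases activate Stat2, which joins Irf9 in a complex that enters the nucleus and binds a DNA element in the promoters of interferon-stimulated genes. The products limit viruses at several steps: Ifit1 and Ifit3 act on viral RNA and on signalling, Oasl2 is an oligoadenylate synthetase-like protein, and Bst2 (tetherin) holds budding virus at the cell surface. Ifitm3 blocks the fusion of virus with endosomes. Isg15 is a ubiquitin-like modifier, Usp18 removes it from proteins and damps the receptor, and Irf7 amplifies interferon production.

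The core of the element bound by that complex is GAAA, then any 2 bases, then GAAA again, and promoters were searched for this paired motif on both strands, from 250 bases before to 50 bases after each annotated start. RefSeq promoters on GRCm38.p6 were available for 8 of the 9 genes, all but Usp18. A match was present for 5 of the 8 (Ifit1, Ifit3, Isg15, Bst2 and Ifitm3), against 3.99% of 27025 genes with such a promoter. Among the other interferon-stimulated genes listed for this comparison, 26 of 50 with a promoter had a match. The 5 promoters with matches are shown because they carry the shared element. That of Irf7 is shown as an example without a match, picked because its values were the least like those of Ifit1. Irf9 and Oasl2 had no match either, and their values correlated with those of Ifit1 at a Pearson r of 0.575 and 0.653 (log2 CPM, 12 libraries). Whether the motif bears on expression was not tested. Capitals mark the matches. In Ifit1 and Ifit3 they lie on the strand opposite to the gene and so read TTTC, 2 bases, TTTC, and overlapping matches in Isg15 and Bst2 appear as 1 run.
Ifit1 (chr19:34640639-34640938, plus strand): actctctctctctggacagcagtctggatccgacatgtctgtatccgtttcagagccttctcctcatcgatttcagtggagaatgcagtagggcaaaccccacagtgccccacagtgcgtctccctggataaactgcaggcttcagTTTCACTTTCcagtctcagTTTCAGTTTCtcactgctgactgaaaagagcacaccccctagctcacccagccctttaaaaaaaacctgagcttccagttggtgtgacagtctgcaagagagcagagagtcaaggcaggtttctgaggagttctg
Ifit3 (chr19:34583279-34583578, plus strand): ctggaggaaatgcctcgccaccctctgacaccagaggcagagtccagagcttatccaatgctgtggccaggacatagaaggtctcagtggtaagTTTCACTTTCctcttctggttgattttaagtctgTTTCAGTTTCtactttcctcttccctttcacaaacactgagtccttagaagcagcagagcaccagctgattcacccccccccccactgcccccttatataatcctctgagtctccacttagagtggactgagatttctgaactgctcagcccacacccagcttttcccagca
Isg15 (chr4:156200769-156201068, minus strand): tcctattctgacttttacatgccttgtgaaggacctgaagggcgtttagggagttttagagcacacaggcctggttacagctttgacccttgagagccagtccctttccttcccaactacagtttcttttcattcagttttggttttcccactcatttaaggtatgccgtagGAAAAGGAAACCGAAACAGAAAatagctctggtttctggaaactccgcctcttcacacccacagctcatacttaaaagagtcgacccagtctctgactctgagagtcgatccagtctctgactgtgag
Bst2 (chr8:71537423-71537722, minus strand): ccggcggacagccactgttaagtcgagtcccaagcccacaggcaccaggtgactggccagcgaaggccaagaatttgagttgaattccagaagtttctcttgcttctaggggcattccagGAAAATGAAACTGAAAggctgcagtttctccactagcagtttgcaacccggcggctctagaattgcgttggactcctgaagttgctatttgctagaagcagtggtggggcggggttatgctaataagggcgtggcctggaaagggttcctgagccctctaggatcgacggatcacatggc
Ifitm3 (chr7:141010695-141010994, minus strand): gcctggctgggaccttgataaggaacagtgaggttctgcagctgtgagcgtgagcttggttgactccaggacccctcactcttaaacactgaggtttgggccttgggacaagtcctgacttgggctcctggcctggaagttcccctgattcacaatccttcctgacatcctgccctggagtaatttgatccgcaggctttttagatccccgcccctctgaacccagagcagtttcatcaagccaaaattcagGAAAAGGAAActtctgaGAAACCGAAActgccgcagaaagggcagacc
Irf7 (chr7:141266375-141266674, minus strand): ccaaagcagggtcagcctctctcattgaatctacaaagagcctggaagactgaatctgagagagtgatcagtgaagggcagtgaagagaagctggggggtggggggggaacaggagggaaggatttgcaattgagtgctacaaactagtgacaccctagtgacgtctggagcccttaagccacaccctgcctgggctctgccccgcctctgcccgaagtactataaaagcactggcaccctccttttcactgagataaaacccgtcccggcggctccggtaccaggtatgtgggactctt

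Ifit1 and Ifit3 each held 2 separate matches, Isg15 a run of 3 overlapping ones and Bst2 a run of 2. In Ifitm3 both matches lay after the annotated start, at positions 3 to 12 and 20 to 29. The palindromic motif TTCNNNGAA, read by STAT dimers, was found in 2 of the 8 promoters (Bst2 and Ifitm3), where it overlaps the paired GAAA matches, and in 9.55% of all genes. A match describes the letters only, and none was found in Irf7, Irf9 or Oasl2 within these windows.

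**Figure D1:**
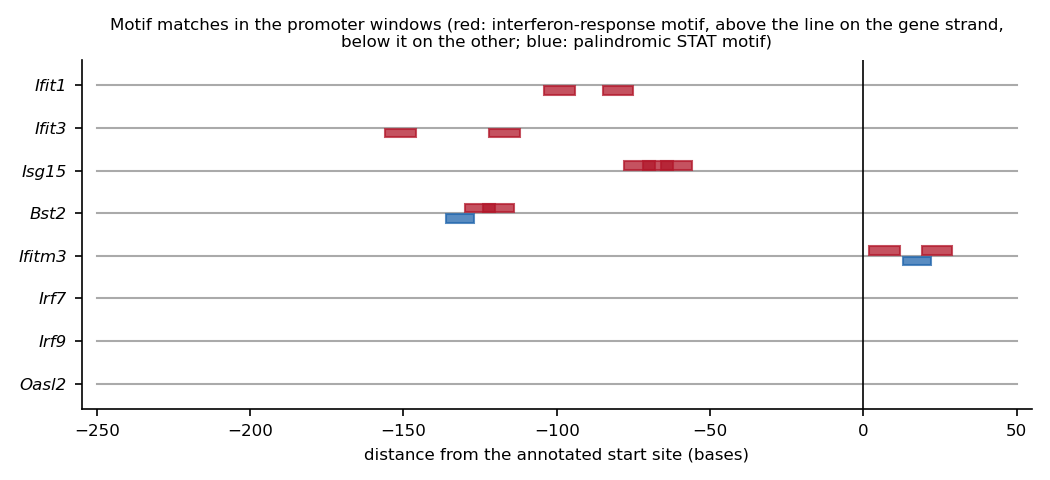
Motif matches by distance in bases from the annotated start of 8 genes (rows); red boxes are the interferon-response motif, above the line on the gene's strand and below it on the other, and blue boxes the palindromic STAT motif. The matches of Ifit1, Ifit3, Isg15 and Bst2 lie before the start, those of Ifitm3 after it, and Irf7, Irf9 and Oasl2 have none.

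The genes lie on 7 chromosomes. Coordinates are those of the deposited files, read as mm10 and counted from 1. Ifit3 (chromosome 19, 34583529 to 34588982) and Ifit1 (chromosome 19, 34640889 to 34650009) lie near each other, and Ifitm3 (141009590 to 141010744) and Irf7 (141263183 to 141266424) are both on chromosome 7. Isg15 is at 156199424 to 156200818 on chromosome 4, Oasl2 at 114896934 to 114912245 on chromosome 5 and Usp18 at 121245906 to 121270917 on chromosome 6. Bst2 is at 71534262 to 71537437 on chromosome 8 and Irf9 at 55603985 to 55610030 on chromosome 14. Reads of Ifit3 may be split with its near-identical copy Ifit3b, so its values are uncertain. Usp18 overlaps the noncoding gene Gm44148 on the other strand, and whether counting used strand is not stated, so reads of the pair cannot be told apart.

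All 9 genes were detected in every library, saline included, with 32 fragments (Isg15 in a saline library) or more. Compared per transcript length, Ifitm3 was the most abundant by far, with a mean of 1224 FPKM over the 12 libraries (760 to 1584), above 99.8% of the genes tested. Bst2 followed at a mean of 104 FPKM (45.8 to 196), and Irf7 at 59.8 (32.7 to 138). Ifitm3 was above Bst2 in 12 of 12 libraries, and Bst2 above Irf7 in 11 of 12. The next 6 were close to each other in FPKM: Isg15 had a mean of 44.1, Ifit3 39.4, Irf9 37.0, Ifit1 30.6, Usp18 27.7 and Oasl2 24.8. Each neighbouring pair from Irf7 down to Oasl2 differed by less than the SD of its log2 ratio over libraries, and their order held in only 6 to 10 of 12 libraries. Between the highest and lowest library, levels in CPM varied 2.06-fold for Ifitm3 and 2.23-fold for Irf9, and 3.07- to 4.57-fold for the other 7.

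The libraries held 2506730 to 5533321 assigned fragments. They contained RNA of several cell types: 14 endothelial markers summed to 14031 to 36342 CPM and 10 oligodendrocyte markers to 16199 to 43914, against 542 to 2503 for 12 dopaminergic genes. Microglial markers summed to 133 to 747 CPM over 18 genes, with 1 to 4 of them at 0 in 5 of the libraries, and perivascular macrophage and leukocyte markers to 69.8 to 393 over 18. No endothelial or oligodendrocyte marker was at 0 in any library. Replicate 2 of synuclein at 12 weeks had fragments in 17409 genes and the other libraries in 19960 to 21135. Replicates 1 and 2 of that group lay apart in earlier results of these data. For the interferon-stimulated genes named at the start, the 12-week comparison with saline and folds that changed sign are also given without both. Folds of pathway and marker genes are given only with them, and whether those folds rest on these libraries was not tested. In such bulk samples, fewer cells of a type and less RNA per cell cannot be told apart.

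The first comparison set fibrils against saline at 7 weeks. None of the 9 genes passed the test there: edgeR called 0 of 9 at an adjusted p under 0.05, against 0.0% of the 17380 genes, and 0 of 9 at an unadjusted p under 0.05, against 1.64%. Of the 9 fitted folds 3 were above 0 and 6 below (51.2% and 48.8% of all genes), with a median log2 fold of −0.11, where all genes tested had 0.01. On leaving out 1 library the median ran from −0.33, without replicate 1 of saline at 7 weeks (1 above 0 and 8 below), to −0.01, without replicate 3 (4 above and 5 below). The folds ran from −0.56 (Isg15) to 0.58 (Irf7).

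Irf7, the interferon regulatory factor that amplifies the response, stood at 104, 105 and 127 CPM in the 3 synuclein libraries at 7 weeks and at 52.9, 98.9 and 72.0 in the saline libraries. Every synuclein library was above every saline library, though the lowest synuclein and highest saline value were close. Its log2 fold was 0.58 ± 0.35 (SE, edgeR adjusted p = 1.0), with a 95% interval from −0.22 to 1.39. Isg15, the ubiquitin-like modifier, lay the other way, with 21.1, 23.2 and 17.7 CPM after synuclein and 27.2, 29.4 and 34.7 after saline. All 3 synuclein libraries were below all 3 saline libraries, and the log2 fold was −0.56 ± 0.40 (edgeR adjusted p = 1.0). Groups that do not overlap were thus seen for 2 of 9 genes, 1 higher and 1 lower, against 8.45% of all genes (4.7% higher and 3.75% lower).

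Among the effectors at 7 weeks, Ifit1 had 72.6, 94.7 and 74.6 CPM after synuclein and 95.9, 147 and 91.5 after saline. The ranges overlapped narrowly, with a log2 fold of −0.47 ± 0.34 (edgeR adjusted p = 1.0). Ifitm3, the most abundant, had 539, 518 and 596 CPM after synuclein and 487, 671 and 718 after saline. Its synuclein values lay inside the saline range, and the fold of −0.18 ± 0.23 had a 95% interval from −0.72 to 0.36. Bst2 was at −0.28 ± 0.37, Ifit3 at 0.12 ± 0.45, Oasl2 at 0.00 ± 0.33, Usp18 at −0.11 ± 0.44 and Irf9 at −0.11 ± 0.29 (edgeR adjusted p = 1.0 for each). On leaving out 1 library the Bst2 fold ran from −0.49 to −0.04, the last without replicate 3 of synuclein, and that of Ifitm3 from −0.33 to −0.06. Irf9, which gives the activated STAT complex its DNA contacts, had 63.1, 136 and 67.4 CPM after synuclein and 93.6, 86.2 and 107 after saline. Its replicate 2 of synuclein was the highest of the 12 libraries and the other 2 synuclein libraries were below all saline ones, so that the fold was −0.55 without replicate 2 and 0.09 without replicate 1. Oasl2 had 91.1, 109 and 65.7 CPM after synuclein and 57.0, 101 and 107 after saline, nearly the same range.

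Usp18, the Isg15 protease, had 49.2, 55.2 and 43.7 CPM after synuclein at 7 weeks and 19.5, 76.7 and 63.1 after saline. Ifit3 had 61.9, 102 and 68.6 CPM after synuclein and 27.2, 115 and 71.5 after saline. For both genes the synuclein libraries lay inside a wider saline range. Replicate 1 of saline at 7 weeks was the lowest of the 12 libraries for Ifit3 (27.2 CPM), Usp18 (19.5 CPM) and Irf7. Without it the fold of Ifit3 was −0.26, that of Usp18 −0.50 and that of Irf7 0.39. Without replicate 2 of saline, the highest of the 12 for Ifit1, Ifit3 and Usp18, these folds were −0.24 for Ifit1, 0.63 for Ifit3 and 0.23 for Usp18.

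**Figure D2:**
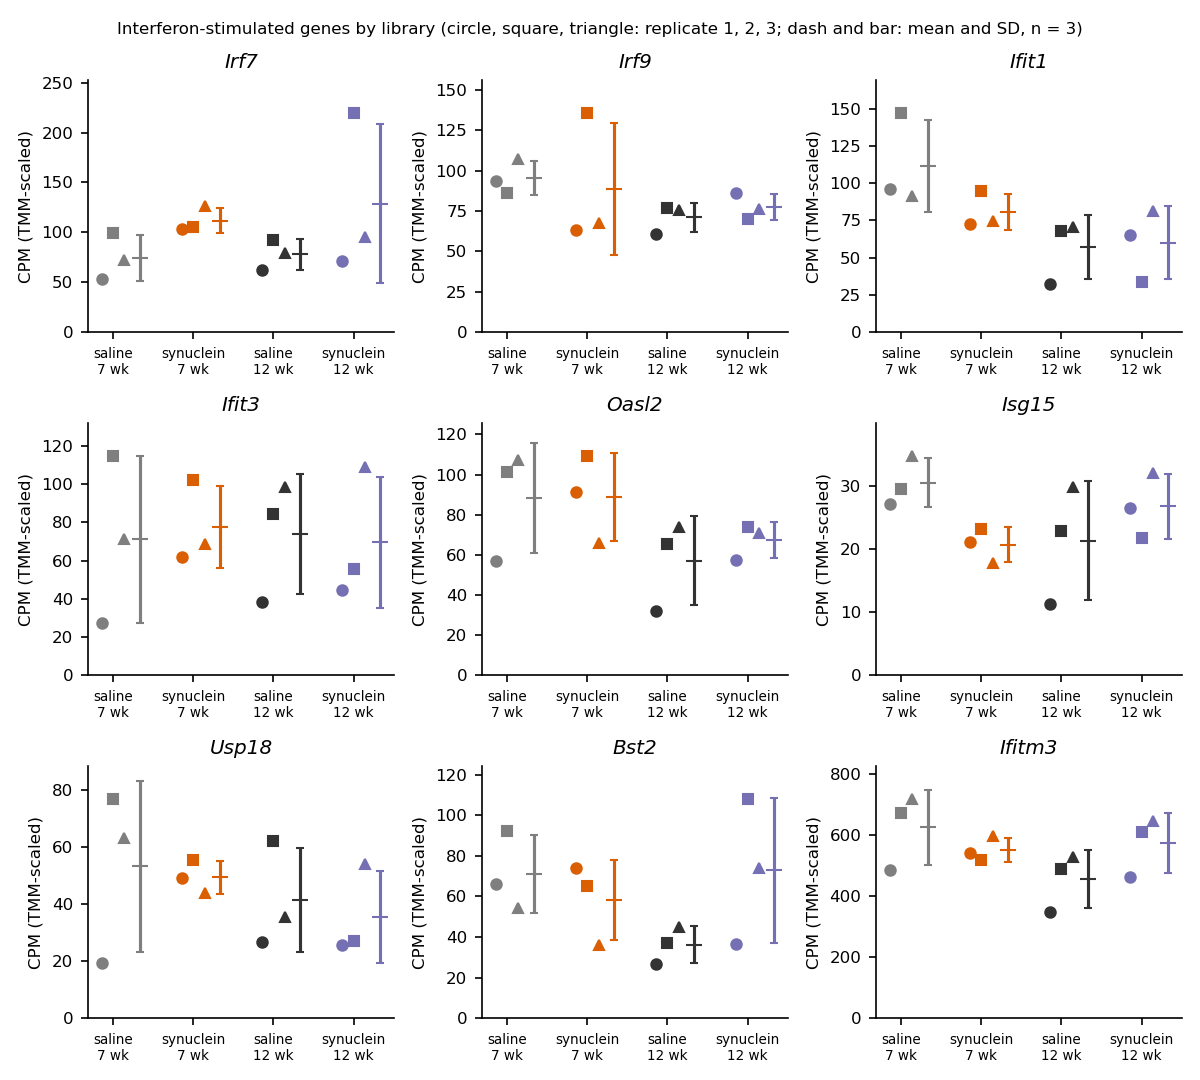
TMM-scaled CPM (y axis, linear from 0) of each of the 9 genes in the 12 libraries (points, by replicate) of the 4 groups (x axis), with the group mean and SD (n = 3). At 7 weeks the 3 synuclein libraries lie above the saline ones for Irf7 and below them for Isg15, and at 12 weeks all 9 genes overlap between the treatments.

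At 12 weeks most of the 9 genes lay higher after synuclein than after saline, and again none passed the test. EdgeR called 0 of 9 at an adjusted p under 0.05 (0.0% of all genes), and 1 of 9, Bst2, at an unadjusted p under 0.05 (5.57% of all genes). Of the folds 7 were above 0 and 2 below (47.3% and 52.7% of all genes), with a median log2 fold of 0.24 against −0.04 over all genes. That median rested on 1 library: without replicate 1 of saline at 12 weeks it was 0.03, with 5 folds above 0 and 4 below, and without replicate 3 of saline it was 0.46. The groups overlapped for all 9, while 10.7% of all genes had groups that did not, 4.01% higher and 6.67% lower.

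Bst2, the tetherin, was at 36.4, 108 and 74.0 CPM after synuclein and at 26.7, 37.3 and 44.8 after saline. Replicates 2 and 3 of synuclein were above every saline library and replicate 1 was within the saline range. The log2 fold was 1.0 ± 0.38 (edgeR adjusted p = 0.89, 0.38 to 1.0 over the 21 other settings), 0.63 without replicate 2 of synuclein and 1.38 without replicate 1. Irf7 was at 71.1, 219.7 and 95.5 CPM after synuclein and at 62.1, 92.3 and 79.5 after saline. Its highest value of the 12 libraries was in replicate 2 of synuclein, the other 2 synuclein libraries overlapped the saline range or lay just above it, and the fold of 0.72 ± 0.35 (edgeR adjusted p = 0.89) became 0.12 without that library.

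Ifitm3 had 462, 611 and 646 CPM after synuclein at 12 weeks and 348, 489 and 528 after saline, a log2 fold of 0.33 ± 0.23 (edgeR adjusted p = 0.90). Replicates 2 and 3 of synuclein were above all saline libraries and replicate 1 was not. Isg15 was at 0.33 ± 0.40, Oasl2 at 0.24 ± 0.33, Irf9, the DNA-binding part of the activated complex, at 0.12 ± 0.29 and Ifit1 at 0.08 ± 0.35. Ifit3 was at −0.09 ± 0.45 and Usp18 at −0.22 ± 0.45 (edgeR called none of these). Isg15 had 26.5, 21.7 and 32.0 CPM after synuclein at 12 weeks and 11.3, 22.8 and 29.9 after saline. Ifit1 had 65.4, 33.5 and 81.3 CPM after synuclein and 32.2, 68.1 and 70.6 after saline, with 1 low library in each group. The low synuclein library of Ifit1 was replicate 2, the one highest in Irf7 and Bst2.

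Usp18 had 25.7, 26.9 and 54.1 CPM after synuclein at 12 weeks and 26.7, 61.8 and 35.6 after saline. Ifit3 had 44.6, 55.4 and 109 CPM after synuclein and 38.6, 84.6 and 98.5 after saline. In both genes replicate 3 of synuclein was well above replicates 1 and 2, and the groups overlapped. Without replicates 1 and 2 of synuclein, which leaves 1 library in that group, whose spread is then assumed to be that of the other groups, all 9 folds were above 0 (median 0.52), with Bst2 at 1.04, Irf7 at 0.30, Ifit3 at 0.57, Usp18 at 0.40 and Ifit1 at 0.52.

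**Figure D3:**
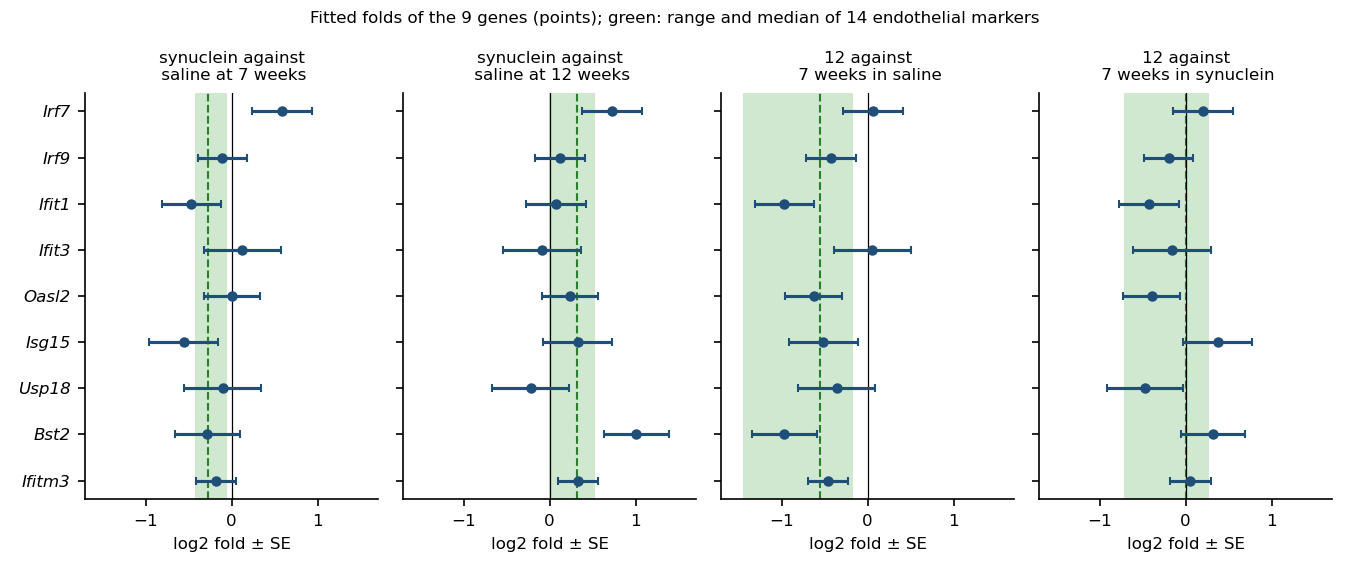
Fitted log2 folds with standard errors (x axis) of the 9 genes (rows) in 4 comparisons; the green band and dashed line give the range and median of 14 endothelial markers in the same comparison. The median of the 9 genes is on the same side of 0 as the endothelial median at 7 weeks, at 12 weeks and in saline. Irf7 lies to the right of the band at 7 and at 12 weeks, as do Ifit3 and Oasl2 at 7 weeks and Bst2 at 12 weeks. To the left of it lie Isg15 and Ifit1 at 7 weeks and Ifit3 and Usp18 at 12 weeks.

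Whether synuclein acted differently at 12 than at 7 weeks was tested as an interaction. The difference was above 0 for 7 of 9 genes and below 0 for 2 (47.4% and 52.6% of all genes), with a median of 0.23 against −0.05 over all genes. Without replicate 1 of saline at 12 weeks the median was 0.12, with 5 above 0 and 4 below, and without replicate 1 of synuclein at 12 weeks it was 0.50, with 9 above 0. In the interaction edgeR called 0 of 9 (0.0% of all genes). At an unadjusted p under 0.05 there was 1, Bst2, against 4.49% of all genes. Bst2 differed by 1.29 ± 0.53, Isg15 by 0.88 ± 0.57, Ifit1 by 0.54 ± 0.49 and Ifitm3 by 0.51 ± 0.33 (edgeR adjusted p = 0.95 for each). For Irf7 the difference was 0.14 ± 0.49, its folds being 0.58 and 0.72. Averaged over both times, Irf7 was at 0.65 ± 0.25 with an unadjusted p of 0.017 and an edgeR adjusted p of 1.0 (0.69 to 1.0 over 20 other settings, with folds from 0.35, without replicate 2 of synuclein at 12 weeks, to 0.82). It was the 1 of 9 genes at an unadjusted p under 0.05 in that comparison, against 2.48% of all genes, and the 9 genes had a median of 0.02 (−0.09 to 0.15 on leaving out 1 library), with 6 above 0 and 3 below (48.3% and 51.7% of all genes). EdgeR called 0 of 9 (0.0% of all genes).

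Saline at 12 weeks was then set against saline at 7 weeks, 2 groups with the same injection. The genes lay lower at 12 weeks for 7 of 9 and higher for 2 (49.0% and 51.0% of all genes), with a median log2 fold of −0.46 against 0.01 over all genes. The median was −0.26 without replicate 1 of saline at 12 weeks and −0.61 without replicate 1 at 7 weeks. EdgeR called 0 of 9 (0.0% of all genes), with Ifit1 and Bst2 at an unadjusted p under 0.05, against 7.42% of all genes. In Ifit1 (32.2, 68.1 and 70.6 CPM at 12 weeks), Irf9 (60.9, 76.9 and 75.8) and Bst2 every 12-week saline library was below every 7-week one, 3 of 9 genes against 7.83% of all genes. The reverse was seen for 0 of 9, against 8.34%, and either for 16.2% of all genes. Ifit1 was at −0.97 ± 0.34 (edgeR adjusted p = 0.47), Bst2 at −0.97 ± 0.38 (edgeR adjusted p = 0.54) and Irf9 at −0.43 ± 0.29 (edgeR adjusted p = 0.82). Oasl2 was at −0.63 ± 0.33, Isg15 at −0.51 ± 0.40, Ifitm3 at −0.46 ± 0.23 and Usp18 at −0.36 ± 0.44, while Ifit3 (0.05 ± 0.45) and Irf7 (0.06 ± 0.35) were near 0. The Usp18 fold was −0.02 without replicate 2 of saline at 7 weeks and −0.78 without replicate 2 at 12 weeks. This comparison and those of synuclein with saline share their saline libraries, so a low saline library at 12 weeks lowers the first and raises the other.

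Replicate 1 of saline at 12 weeks was that library for most of the genes: it was the lowest of the 12 for 6 of 9 (Ifit1, Isg15, Irf9, Oasl2, Bst2 and Ifitm3), and the 9 genes summed to 638 CPM in it, against 875 to 1418 in the others. Without it the saline time folds were −0.65 for Ifit1, −0.30 for Oasl2, −0.17 for Isg15 and −0.26 for Ifitm3. The synuclein folds at 12 weeks without it were 0.03 for Isg15, −0.04 for Oasl2 and 0.18 for Ifitm3. Over the 9 genes these folds still ran from −0.45 to 0.84, with 5 above 0 and 4 below.

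From 7 to 12 weeks after synuclein the 9 genes had folds on both sides of 0. Their median log2 fold was −0.16 against −0.06 over all genes, with 4 above 0 and 5 below (45.8% and 54.2% of all genes). On leaving out 1 library it ran from −0.27, without replicate 1 of synuclein at 7 weeks, to 0.14, without replicate 1 of synuclein at 12 weeks. It was 0.12 without replicate 2 of synuclein at 7 weeks. EdgeR called 0 of 9 (0.0% of all genes), none was at an unadjusted p under 0.05 (7.58% of all genes), and the groups overlapped for all 9 (they did not for 12.3% of all genes, 5.13% higher and 7.13% lower). The folds ran from −0.47 ± 0.45 for Usp18 and −0.42 ± 0.35 for Ifit1 to 0.32 ± 0.37 for Bst2 and 0.37 ± 0.40 for Isg15. Averaged over both treatments, 8 of 9 lay lower at 12 weeks and 1 higher (53.0% and 47.0% of all genes), with a median of −0.31 against −0.03 over all genes (−0.38 to −0.13 on leaving out 1 library, the last without replicate 1 of synuclein at 12 weeks). EdgeR called 0 of 9 there, against 0.834% of all genes (0.541% higher and 0.293% lower), with Ifit1 at −0.70 ± 0.24 (edgeR adjusted p = 0.27) and Oasl2 at −0.51 ± 0.23 (edgeR adjusted p = 0.46) at an unadjusted p under 0.05, as were 9.82% of all genes.

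Endothelial markers lay to the same side as most of the 9 genes in synuclein against saline at each time and with time in saline. Of 14 endothelial markers all 14 were below 0 at 7 weeks after synuclein (median −0.27), all 14 above 0 at 12 weeks (median 0.32), and all 14 below 0 with time in saline (median −0.56), and edgeR called 0 of 14 in each. After synuclein the time median was 0.01, with 7 above 0 and 7 below. For synuclein against saline over both times the endothelial median was −0.0007, also with 7 above 0 and 7 below. The summed level of the list was 20983 to 36342 CPM in saline and 20064 to 28351 in synuclein at 7 weeks, and 14031 to 19695 in saline and 15953 to 25592 in synuclein at 12 weeks. The library lowest for 6 of the 9 genes, replicate 1 of saline at 12 weeks, was also the lowest in endothelial RNA. The sum of the 9 genes varied 2.22-fold over the libraries and the endothelial sum 2.59-fold, while the first as a percentage of the second varied 1.51-fold, from 3.63% to 5.48%. Ifitm3 is the largest term of the sum in every library, and the other 8 genes summed to 290 to 746 CPM. With time over both treatments, where 8 of the 9 genes lay lower, all 14 endothelial markers were below 0 (median −0.29) and edgeR called 1 lower, the glucose transporter Slc2a1 (−1.07 ± 0.23, edgeR adjusted p = 0.038). Oligodendrocyte markers lay the other way, all 10 above 0 (median 0.86) with 5 called higher, and their sums were 16199 to 25543 CPM at 7 weeks and 25592 to 43914 at 12 weeks. Of 11 dopaminergic genes tested 10 were below 0 (median −1.26) and 2 were called lower. Of all genes 0.541% were called higher and 0.293% lower in this comparison. The calls of these marker genes are from the main fit only. Over all genes that fit called 145, against 24 to 214 on leaving out 1 library. The part of endothelial, oligodendrocyte or dopaminergic RNA in the levels of the 9 genes was not tested.

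**Figure D4:**
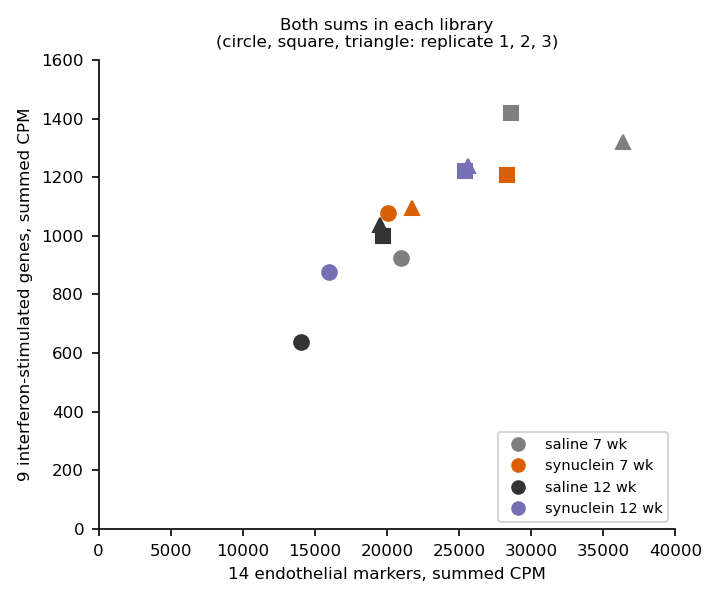
Summed CPM of the 9 interferon-stimulated genes (y axis) against summed CPM of 14 endothelial markers (x axis) in each of the 12 libraries, coloured by group with 1 marker shape per replicate. The library with the lowest endothelial sum (14031 CPM) also has the lowest sum of the 9 genes (638 CPM), and saline and synuclein overlap at both times.

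Irf7 alone was 0.20% to 0.86% of the endothelial sum, a 4.36-fold range. The highest was in replicate 2 of synuclein at 12 weeks and the next, 0.58%, in replicate 3 of synuclein at 7 weeks. The other members were not set against this sum 1 by 1, so the range is not shown to be particular to Irf7. Microglial markers lay otherwise than the endothelial ones in synuclein against saline. At 7 weeks 16 of 17 tested were above 0 (median 1.13, where replicate 3 of synuclein summed to 747 CPM and its 5 fellow libraries to 150 to 298), and at 12 weeks 11 of 17 were below 0 (median −0.75). In replicate 2 of synuclein at 12 weeks, which had the highest Irf7 and Bst2, microglial markers summed to 141 CPM. There 4 of 18 markers were at 0 (P2ry12, Tmem119, Trem2 and Siglech), in the library with fragments in the fewest genes (17409). Replicate 1 of the same group summed to 133 CPM, also with 4 of 18 at 0, and had Irf7 at 71.1 and Bst2 at 36.4 CPM. The part of microglial RNA in the levels of Irf7, Bst2 or the other members was not tested.

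The 9 genes tended to be high in the same libraries. Over the 12 libraries 33 of 36 pairs of genes had a correlation of log2 CPM above 0, with a median Pearson r of 0.50, given as a description of libraries that also share depth and cell makeup. Ifit3 and Usp18 were the most alike (r = 0.84) and Irf7 and Ifit1 the least (r = −0.25). Irf7 had a median r of 0.29 with the other members, Irf9 0.26 and Oasl2 0.65. Among all genes tested, those most like the mean of the 9 were Msn (r = 0.95), Tie1, a receptor of endothelial cells (r = 0.94), Jak3 (r = 0.93), Foxp1, Sptan1 and Specc1l (r = 0.92 each), Nr1d2 (r = 0.91) and Piezo1, a mechanically gated channel (r = 0.90).

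Taken 1 by 1, the members had different nearest genes over the 12 libraries. Ifitm3 was most like H2-L, Scarb1 and Tspo (r = 0.94 to 0.96), and Ifit1 most like Ccpg1, Anapc4 and S1pr1, a sphingosine phosphate receptor (r = 0.90 to 0.94). Usp18 was closest to Cyb561, Gas6 and Mospd3 (r = 0.92 to 0.93), and Oasl2 to Crem, Atg101 and Mgat1 (r = 0.90 to 0.92). For Irf9 the nearest were Ccdc141, Spag9 and Notch4 (r = 0.89 to 0.91), and for Irf7 Sf1, Armc5 and 2010010A06Rik (r = 0.88 to 0.92). Bst2 was nearest to Napg, Erp44 and Sars (r = 0.89 to 0.91), Ifit3 to Apcdd1, Erc1 and Lmna (r = 0.89 to 0.90) and Isg15 to Cggbp1, Rab8a and Gnb2l1 (r = 0.87 to 0.90). No gene of the pathway lists was among these 35, but those lists are not complete and did not hold, for example, Jak3, a kinase of the JAK family. This is a description of 12 libraries only.

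Ifit3b, the copy of Ifit3, ranged from 1.13 CPM (4 fragments) in replicate 1 of synuclein at 12 weeks to 50.7 CPM in replicate 2 of the same group. The sum of Ifit3 and Ifit3b was 43.2, 153 and 104 CPM in saline and 80.4, 130 and 94.6 in synuclein at 7 weeks. At 12 weeks it was 59.7, 104 and 134 in saline and 45.7, 106 and 153 in synuclein. The treatments overlapped at both times, as they did for Ifit3 alone.

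The ligands of the pathway were close to undetected. Of 10 interferon genes, among them Ifnb1, Ifng and 4 Ifna genes, 0 passed the filter on low counts, none had more than 10 fragments in a library, and together they had 9 to 45 fragments per library. The receptor chains were present, with means of 140 FPKM for Ifnar2, 120 for Il10rb (a chain shared with interleukin-10) and 42.2 for Ifnar1. After synuclein Ifnar1 was at −0.14 ± 0.27 at 7 weeks and 0.33 ± 0.27 at 12 weeks, and Ifnar2 at −0.32 ± 0.27 and −0.09 ± 0.27. Ifngr1, of the interferon-γ receptor, was at −0.71 ± 0.40 at 7 weeks and −0.07 ± 0.40 at 12 weeks. Of the 6 receptor genes tested, edgeR called 0 in either comparison. Ifnlr1 was at −2.34 ± 1.06 at 12 weeks but had only 0 to 43 fragments per library.

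Of 11 genes of JAK-STAT signalling, 8 were below 0 at 7 weeks (48.8% of all genes, median −0.22) and 9 above 0 at 12 weeks (47.3% of all genes, median 0.48). None of the 11 was called by edgeR in either (0.0% of all genes), and 3 of 11 were at an unadjusted p under 0.05 at 12 weeks, against 5.57% of all genes, Stat2 and Tyk2 among them. Stat2, the partner of Irf9 in the activated complex, had 54.4, 78.7 and 65.7 CPM after synuclein at 12 weeks and 37.1, 33.6 and 50.5 after saline. Its groups did not overlap, and its log2 fold was 0.71 ± 0.29 (edgeR adjusted p = 0.89), against −0.41 ± 0.29 at 7 weeks. Of the 11 genes, groups did not overlap for 1 higher and 0 lower at 12 weeks (4.01% and 6.67% of all genes). The counts at 7 weeks were also 1 and 0 (4.7% and 3.75% of all genes). The kinase Tyk2 was at 0.79 ± 0.38 at 12 weeks. Irf8, of microglia and macrophages, was at 1.08 ± 0.52 at 7 weeks and −0.37 ± 0.53 at 12 weeks, and Irf1 at −0.31 ± 0.35 and −0.04 ± 0.35. Stat3 and Irf3 were at 0.38 ± 0.28 and 0.48 ± 0.34 at 12 weeks.

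Among 64 other interferon-stimulated genes tested, of 68 listed, 38 were below 0 at 7 weeks with a median of −0.09, and 42 above 0 at 12 weeks with a median of 0.15, against 48.8% and 47.3% of all genes. EdgeR called 0 of 64 in each, and 0 and 5 were at an unadjusted p under 0.05, against 1.64% and 5.57% of all genes. The 5, all higher after synuclein at 12 weeks, were Slfn2 (1.26 ± 0.36), Lgals3bp (0.98 ± 0.31), Rtp4 (0.94 ± 0.30), Samd9l (0.78 ± 0.32) and Eif2ak2, a kinase activated by double-stranded RNA (0.76 ± 0.31). The edgeR adjusted p was 0.89 for each, and Lgals3bp, Samd9l and Eif2ak2 are named after their values were seen. Of the 64 genes, groups did not overlap for 1 higher and 4 lower at 7 weeks (4.7% and 3.75% of all genes). At 12 weeks they did not for 6 higher and 3 lower (4.01% and 6.67% of all genes). Rtp4, a chaperone of membrane receptors, had 71.4, 125 and 90.4 CPM after synuclein at 12 weeks and 33.9, 46.4 and 68.6 after saline, against 73.8, 87.6 and 89.7 and 89.3, 140.2 and 148 at 7 weeks. Its interaction was 1.53 ± 0.42 (edgeR adjusted p = 0.95). Its 3 saline libraries at 12 weeks were the lowest 3 of the 12.

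The most abundant of these other genes were Ly6a and Ly6e, surface proteins, and Ifitm2, a relative of Ifitm3, with means of 3256, 937 and 499 FPKM. They were at −0.36 ± 0.29, −0.31 ± 0.25 and −0.07 ± 0.29 at 7 weeks and at 0.22 ± 0.29, 0.30 ± 0.25 and 0.42 ± 0.29 at 12 weeks. Tap1, a peptide transporter of antigen presentation, was at 0.78 ± 0.55 and 0.43 ± 0.55, and the chemokine Cxcl10, with at most 17 fragments in a library, at 1.16 ± 0.92 and −1.38 ± 0.95. Oas3 had a mean of 0.64 FPKM and a fold of −1.48 ± 1.05 at 12 weeks.

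**Figure D5:**
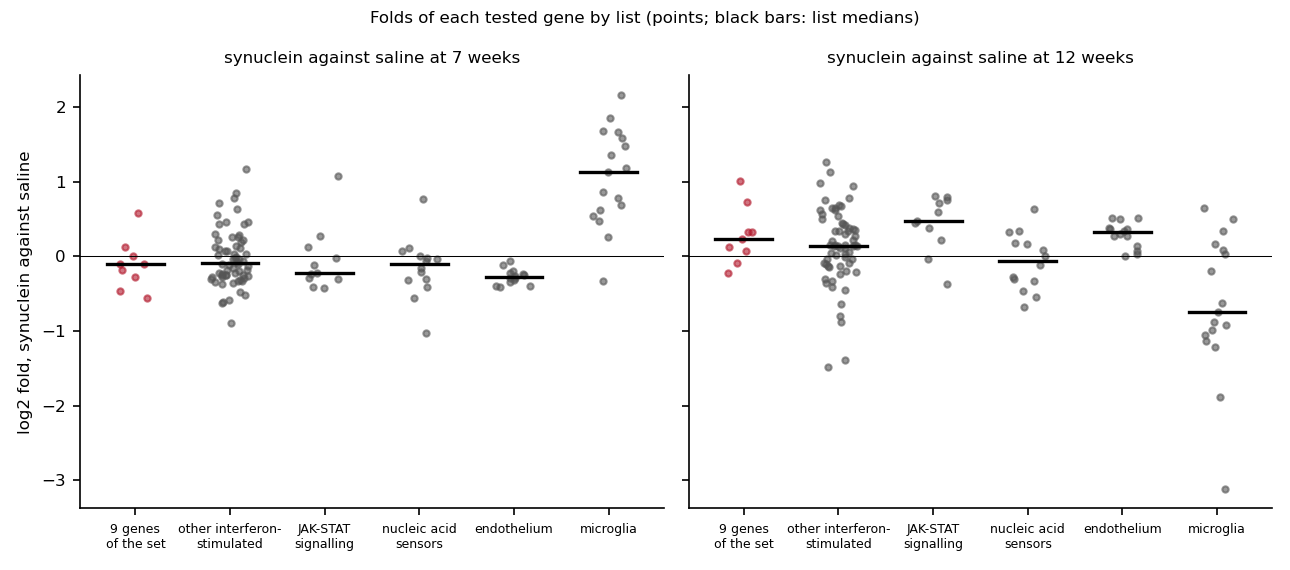
Log2 folds of synuclein against saline (y axis) at 7 weeks (left) and 12 weeks (right) for each tested gene of 6 lists (x axis), with list medians as black bars. The 9 genes (red) have medians of −0.11 and 0.24, the other interferon-stimulated genes −0.09 and 0.15, endothelial markers −0.27 and 0.32, and microglial markers 1.13 and −0.75.

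Sensors upstream of interferon and the enzymes around Isg15 gave no call either. Of 14 tested sensors of foreign nucleic acid and their adaptors, 11 were below 0 at 7 weeks (median −0.10) and 8 at 12 weeks (median −0.06), against 48.8% and 52.7% of all genes. Mavs, the adaptor of RNA sensors, was at −0.21 ± 0.40 and 0.08 ± 0.40, Myd88, of Toll-like receptors, at −0.55 ± 0.45 and −0.33 ± 0.45, and Mb21d1, the DNA sensor cGAS, at −0.03 ± 0.68 and −0.67 ± 0.69. Ticam1 was at 0.76 ± 0.73 and 0.19 ± 0.72, and the RNA sensor Ifih1 at −0.41 ± 0.36 and −0.31 ± 0.36. Ikbke had at most 27 fragments in a library and folds of −1.02 ± 1.19 and 0.63 ± 1.22. Of the enzymes that attach Isg15, Uba7 was at 0.46 ± 0.37 at 7 weeks and −0.47 ± 0.37 at 12 weeks, Ube2l6 at 0.10 ± 0.27 and −0.40 ± 0.27, Herc6 at 0.33 ± 0.45 and 0.54 ± 0.45 and Trim25 at −0.32 ± 0.26 and −0.11 ± 0.26.

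Of 9 feedback inhibitors, edgeR called 0 at either time (0.0% of all genes). Trex1, an exonuclease that clears cytosolic DNA and so limits interferon induction, had 20.0, 10.9 and 18.6 CPM after synuclein at 7 weeks and 39.5, 50.5 and 29.6 after saline. Its groups did not overlap, and the log2 fold was −1.27 ± 0.43 (edgeR adjusted p = 1.0), against −0.24 ± 0.43 at 12 weeks. Trex1 is named as the list's smallest unadjusted p among the lower genes. Groups that did not overlap were seen for 1 of 9 higher and 1 lower at 7 weeks (4.7% and 3.75% of all genes). At 12 weeks they were seen for 2 higher and 0 lower (4.01% and 6.67% of all genes). Nlrx1 was at 0.77 ± 0.53 and 0.86 ± 0.52, Pias1, an inhibitor of STAT binding, at 0.22 ± 0.24 and 0.42 ± 0.24, Ptpn11 at −0.14 ± 0.25 and 0.39 ± 0.25, and Cish at 0.09 ± 0.83 and −0.96 ± 0.84.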

How the data were processed

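Per the labels' protocols, cells were sorted into TRIzol LS, total RNA was purified on Direct-zol columns, and libraries used SMARTer Ultra-Low reagents. TopHat2 2.0.13, Bowtie2 2.2.3 and Cufflinks 2.2.1 are named in the submitters' processing notes. No genome build is named there (not given in the sources used here). The authors deposited estimated counts and FPKM per gene and library. The deposited estimated counts are scaled: in each library 98.7% to 98.9% of nonzero values were whole multiples (within 0.02) of 1 step between 0.685 and 1.30, and dividing by it gave the fragments.

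Counts were rounded and tested in edgeR 4.0.16 (R 4.3.3) by quasi-likelihood with filterByExpr, TMM and 1 mean per group over 12 libraries (8 residual degrees of freedom, common biological coefficient of variation 46.6%). P-values were adjusted by Benjamini-Hochberg across 17380 genes, with a threshold of 0.05. CPM are TMM-scaled, and folds are log2 with SE. Intervals use the t distribution with 8 degrees of freedom and not the quasi-likelihood test. An interval can therefore include 0 where that test gives an unadjusted p under 0.05. The 7 comparisons are synuclein against saline at each time and over both, 12 against 7 weeks in each treatment and over both, and the interaction. Log2 CPM for likeness had a prior count of 2. With 3 libraries per group, the number of samples limits precision.

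The members and lists were chosen with earlier results of these data known. The naming rule took all members, then per pathway list any called gene, the 3 with the highest mean FPKM and, in each direction, the smallest unadjusted p in each treatment comparison, and per member the 3 most correlated genes (8 for their mean). Alternatives were DESeq2 1.42.0, limma-voom (limma 3.58.1), other scalings, no filter, only the groups compared, a replicate block, recovered fragments and left-out libraries. The procedure was tested on simulated data. Of gene names, 95.7% were found in GENCODE M21 (mm10), 61.2% of these with both ends within 1000 bases. Replicates of a group differed by more than sampling noise (chi-square per degree of freedom of 11.7 or more). Values of 1 listed pathway gene are not reported here.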

Additional observations from a re-analysis of the deposited data

How the results depend on the processing

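None of the 9 genes passed the threshold in any of the 7 comparisons under the 20 or 21 other settings run for each. Of 1296 refitted log2 folds 92 changed sign, 66 of them on leaving out 1 library, and the cause was not tested. Without replicates 1 and 2 of synuclein at 12 weeks, Oasl2 was at −0.001 in synuclein against saline at 7 weeks, Ifit3 was at 0.569 and Usp18 was at 0.399 in synuclein against saline at 12 weeks, Ifit3 was at 0.45, Irf7 was at −0.275 and Usp18 was at 0.511 in the interaction, Ifit1 was at 0.016, Ifit3 was at 0.492, Irf7 was at −0.224 and Usp18 was at 0.136 in time in synuclein, Ifit1 was at 0.026, Isg15 was at 0.016, Irf9 was at −0.002 and Usp18 was at 0.144 in synuclein over both times, Ifit3 was at 0.267, Isg15 was at 0.055 and Irf7 was at −0.086 in time over both treatments. With limma-voom, Usp18 was at 0.111 in synuclein against saline at 7 weeks, Irf7 was at −0.053 in the interaction, Irf9 was at −0.036 in synuclein over both times. Without the TMM factor, Irf7 was at −0.026 in the interaction, Ifitm3 was at −0.03 in time in synuclein. With no filter on low counts, Oasl2 was at −0.006 in synuclein against saline at 7 weeks. With the replicate number as a block, Usp18 was at 0.072 in synuclein against saline at 7 weeks, Irf7 was at −0.041 in the interaction, Irf9 was at −0.007 in synuclein over both times. Leaving out 1 library in turn also moved folds across 0. In synuclein against saline at 7 weeks the range was −0.261 to 0.626 for Ifit3, −0.548 to 0.088 for Irf9, −0.232 to 0.173 for Oasl2 and −0.5 to 0.227 for Usp18. In synuclein against saline at 12 weeks the range was −0.206 to 0.39 for Ifit1, −0.564 to 0.197 for Ifit3, −0.043 to 0.475 for Oasl2 and −0.655 to 0.229 for Usp18. In the interaction the range was −0.684 to 0.2 for Ifit3, −0.445 to 0.502 for Irf7, −0.06 to 0.496 for Oasl2 and −0.545 to 0.353 for Usp18. In time in saline the range was −0.328 to 0.564 for Ifit3 and −0.13 to 0.303 for Irf7. In time in synuclein the range was −0.637 to 0.136 for Ifit3, −0.391 to 0.557 for Irf7, −0.368 to 0.268 for Irf9, −0.04 to 0.705 for Bst2 and −0.042 to 0.249 for Ifitm3. In synuclein over both times the range was −0.222 to 0.288 for Ifit3, −0.258 to 0.054 for Isg15, −0.201 to 0.118 for Irf9, −0.013 to 0.245 for Oasl2 and −0.382 to 0.053 for Usp18. In time over both treatments the range was −0.295 to 0.226 for Ifit3, −0.197 to 0.115 for Isg15 and −0.168 to 0.307 for Irf7.

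Counts over all genes moved more. For time over both treatments edgeR called 145 genes, against 468 with DESeq2, 246 with the replicate number as a block, 0 without replicates 1 and 2 of synuclein at 12 weeks and 24 to 214 on leaving out 1 library. For time in saline it called 0, against 165 with DESeq2, 49 with only the groups compared, 34 with the block, 14 without those 2 libraries and 7 with no filter. DESeq2 also called 82 genes for time in synuclein, 12 for synuclein at 12 weeks and 3 for synuclein over both times. Recovered fragments gave 142 calls for time over both treatments. Without the TMM factor the median over all genes in the interaction was −0.18, against −0.05. Libraries with the same replicate number deviated together in part: of 18 same-numbered pairs 12 had deviations correlated above 0.1 (−0.01 to 0.39), the 6 pairs of replicates 1 among them (0.133 to 0.391), and 11 of 12 libraries correlated best with their own number. This is a hint from the data. The other 6 pairs were at or under 0.1 and the labels tie the numbers to no shared animal, litter or day, so the numbers were not taken as pairing. The block called 0 of 9 members in each comparison. Depth limits Isg15 most, with 32 to 176 fragments per library.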
